A study of Caenorhabditis elegans with 6 samples.

Results

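The RNA of 10 genes of the methionine and one-carbon cycle was followed in *Caenorhabditis elegans* larvae with and without a working *sdhb-1*, the gene for the B subunit of succinate dehydrogenase. The genes were chosen by name, as *sams-1*, *sams-3*, *sams-4*, *sams-5*, *metr-1*, *mthf-1*, *ahcy-1*, *mel-32*, *pmt-1* and *pmt-2*, and all 10 were in the deposited table, with 51 of its 53267 merged exons and 10 of its 12798 genes. PolyA RNA of whole worms was sequenced in 6 conditions with 1 library each. WT (L2), WT (L3) and WT (L4), named L2 WT, L3 WT and L4 WT below, were wild-type Bristol larvae of the named stage. The library labelled *gk165* (L2) came from *sdhb-1(gk165)* larvae, whose deletion removes a large part of the gene and which stop developing at L2. By the study's map the deletion also reaches into the neighbouring gene *cup-15*. The library labelled R244H (L4) has the genotype *sdhb-1(gk165)/mIn1;R244H*, so its label includes the balancer *mIn1*, and it carries a point mutant *sdhb-1* transgene. The study describes R244H animals as point mutants on the deletion background, kept over *mIn1* for propagation. It lists this balancer with a GFP marker and a *dpy-10* allele. A balanced animal keeps an intact *sdhb-1* copy, and whether the sequenced worms were balanced cannot be told from the label. WTR (L4), named WTR below, has the genotype *sdhb-1(gk165);WTR* and carries the wild-type transgene in the same deletion. Both transgenes are single-copy insertions on the X chromosome under the *sdhb-1* promoter with an *unc-119(+)* marker, and the study lists *unc-119(ed3)* as uncertain in both strains. R244H worms grow slowly and become sterile adults.

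The cycle passes methyl groups from folate to other molecules. Methionine is turned into S-adenosylmethionine (SAM), the general methyl donor, by the SAM synthetases of the *sams* genes. Methyltransferases use SAM and leave S-adenosylhomocysteine, which AHCY-1 splits to homocysteine. METR-1, a methionine synthase that needs vitamin B12, makes methionine again with a methyl group from folate, which MTHF-1, the methylenetetrahydrofolate reductase, prepares and MEL-32, a serine hydroxymethyltransferase, feeds from serine. In worms a large use of SAM is the methylation of phosphoethanolamine to phosphocholine by PMT-1, which takes the first step, and PMT-2, which takes the later ones, and loss of *sams-1* is known to lower phosphatidylcholine and to raise fat stores.

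The values below are reads recovered from the steps of the deposited log2 RPKM values and pooled over the exons of a gene, with 188742 to 867446 reads per library, the fewest in L2 WT and the most in L4 WT. Levels are given in RPKM, reads per kilobase of listed exon scaled to the effective library size. A ratio is the log2 ratio of 2 libraries after adding 1 CPM, and its 95% interval (exact, Clopper-Pearson) covers counting error only. With 1 library per condition there is no replicate spread, so no test between conditions was run, and an order of levels is an order of libraries. In RNA of whole worms, fewer cells of a type and less RNA per cell cannot be told apart. *sdhb-1* itself had 5 reads in *gk165* and 32, 142, 165, 68 and 44 reads in L2 WT, L3 WT, L4 WT, R244H and WTR. In the same order its level was 15.2 RPKM and 116, 214, 174, 146 and 70.9 RPKM, so WTR lay below the other controls and R244H. Reads lay closer to the 3′ end in the youngest and the arrested larvae. Among 785 genes with 3 or more listed exons and 20 or more reads in every library, the median percentage of reads in the exon nearest the 3′ end was 55.1% in *gk165*, 39.1% in L2 WT and 26.9% to 34.3% in the other 4 libraries.

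In wild-type larvae *ahcy-1* was the most abundant of the 10 genes per length and *sams-5* the least. *ahcy-1* (chromosome I, 6836375 to 6838140 of WBcel235, plus strand) stood at 1101 RPKM in L2 WT, 1736 in L3 WT, 1567 in L4 WT, 1352 in WTR, 723 in R244H and 653 in *gk165*, so that both mutants lay below all 4 controls. *sams-1* (X, 11965962 to 11968123, plus strand) followed at L2 and L3 with 295 and 452 RPKM and stood at 162 RPKM in L4 WT. *mel-32* (III, 6440145 to 6441867, minus strand) lay between 205 and 263 RPKM in the 4 controls, the narrowest range of the 10 genes relative to its level. *pmt-2* (V, 4628580 to 4635263, plus strand) was at 137, 246, 312 and 252 RPKM in L2 WT, L3 WT, L4 WT and WTR. *pmt-1* (II, 5278137 to 5282525, minus strand) was at 45.0, 136, 111 and 132 RPKM in the same libraries, lower than *pmt-2* in each. *metr-1* (II, 10926561 to 10931075, plus strand) and *mthf-1* (II, 7773880 to 7777827, minus strand) lay between 68.7 and 119 RPKM in the controls, with 10.1 and 32.03 RPKM in *gk165* and 62.8 and 67.8 RPKM in R244H. *sams-3* (IV, 5848657 to 5850845, plus strand) and *sams-4* (IV, 5843890 to 5846398, minus strand) are neighbours and had 24.9 to 72.9 RPKM in the controls. *sams-5* (IV, 6277435 to 6278531, minus strand) had 0 reads in L2 WT and 1 in L3 WT, and 44.8 and 38.1 RPKM in L4 WT and WTR. The listed exons of *sams-3*, *sams-4* and *sams-5* include 1 of 410 bp each, and *sams-3* and *sams-4* also share an exon length of 61 bp. *sams-1* and *sams-4* share an exon length of 135 bp. *sams-3*, *sams-4* and *sams-5* are closely related paralogs, so reads may have been divided among them, and their separate values are uncertain. Whether *sams-1* shares reads with them was not analysed. In the annotation of the same assembly, exons of *mthf-1*, *sams-3* and *sams-4* are overlapped by *C06A8.6*, *C06E7.4* and *C06E7.2* on the opposite strand, and whether the counting used strand is not given in the sources used here.

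**Figure D1:**
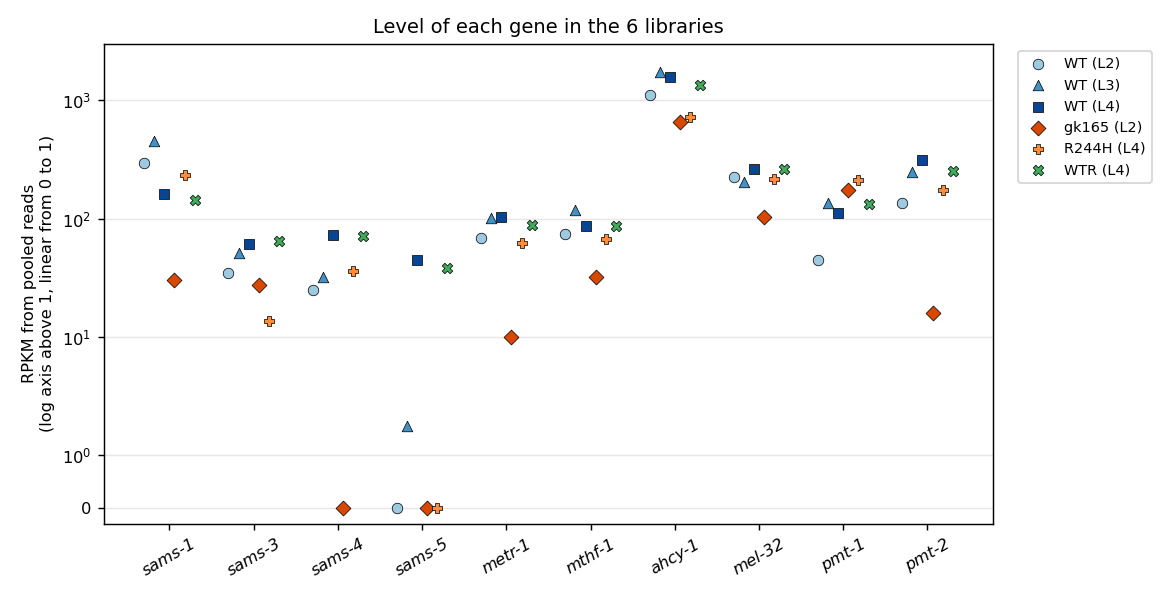
Level of each of the 10 genes (horizontal axis) in RPKM from pooled reads (vertical axis, log above 1 and linear from 0 to 1), with 1 point per library and no error bars. *sams-1*, *metr-1* and *pmt-2* are lowest in *gk165*, with 30.6, 10.1 and 16.1 RPKM, while *pmt-1* is at 176 RPKM there, above its 45.0 RPKM in L2 WT.

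In *gk165* the 2 genes of phosphocholine synthesis lay far apart. *pmt-1* had 93 reads and *pmt-2* 7, whereas L2 WT had 20 and 50, L3 WT 145 and 216, L4 WT 170 and 393, R244H 160 and 107 and WTR 132 and 207. *pmt-1* was 3.88-fold higher than in L2 WT, a log2 ratio of 1.96 (95% interval 1.26 to 2.74), and its log2 ratio to L3 WT was 0.37 (-0.02 to 0.76), an interval that includes no change. *pmt-2* was 8.21-fold lower than in L2 WT and 14.8-fold lower than in L3 WT, with log2 ratios of -3.04 (-4.47 to -1.94) and -3.88 (-5.27 to -2.87). Taken within 1 library, which needs no scaling between libraries, *pmt-1* held 93.0% of the reads of the pair in *gk165* (86.1% to 97.1%) and 28.6% (18.4% to 40.6%), 40.2% (35.1% to 45.4%), 30.2% (26.4% to 34.2%) and 38.9% (33.7% to 44.4%) in L2 WT, L3 WT, L4 WT and WTR. Per length, *pmt-1* stood at 10.9 times the level of *pmt-2* in *gk165* and at 0.33 to 0.55 times that level in the 4 controls. Of the 7 reads of *pmt-2* in *gk165*, 0 fell in its first 3 listed exons, which had 11.5 of 50 reads in L2 WT and 55.5 of 216 in L3 WT. At that share 7 reads are too few to tell whether these exons were lower than the others.

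**Figure D2:**
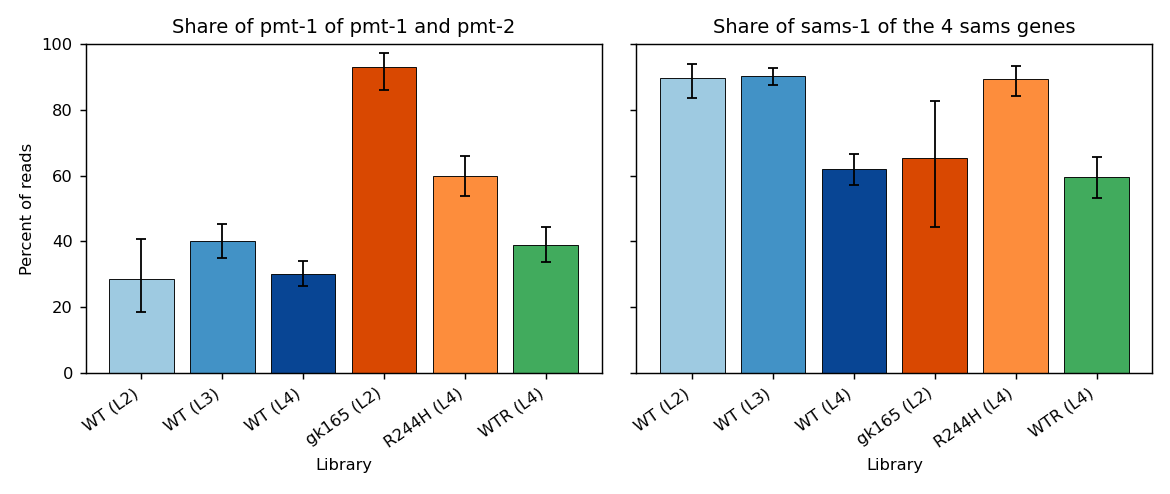
Percent of reads (vertical axis) that *pmt-1* held of *pmt-1* and *pmt-2* together (left) and that *sams-1* held of the 4 *sams* genes (right) in each library, with exact 95% binomial intervals as bars. *pmt-1* holds 93.0% in *gk165* and 59.9% in R244H, above the 28.6% to 40.2% of the controls, and *sams-1* holds 89.3% in R244H and 59.6% to 61.9% in the L4 controls.

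Of the 4 SAM synthetase genes, *sams-1* and *sams-4* lay at least 2-fold below both controls in *gk165*. *sams-1* had 17 reads in *gk165*, 137.5 in L2 WT, 505.5 in L3 WT, 259.5 in L4 WT, 183.5 in R244H and 152 in WTR, and was lowest in *gk165*, although L2 WT had fewer reads in all. It was 9.48-fold lower than in L2 WT and 14.5-fold lower than in L3 WT, with log2 ratios of -3.24 (-4.09 to -2.54) and -3.86 (-4.68 to -3.19). *sams-4* had 0 reads in *gk165*, 7 in L2 WT and 21.5 in L3 WT. Counted at a floor of 3 reads per library it was 2.77-fold and 3.56-fold lower, and its intervals end at log2 -0.78 and -1.44. *sams-3* had 8.5 reads in *gk165*, 9 in L2 WT and 32 in L3 WT, and both of its intervals (-1.99 to 1.13 and -2.32 to 0.16) include no change. *sams-5*, with 0 reads in *gk165*, had too few in either control for a ratio. Summed over the 4 genes, the level was 58.3 RPKM in *gk165* and between 283 and 538 RPKM in the other 5 libraries.

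*ahcy-1*, which yields homocysteine, and genes of the return to methionine were lower in *gk165* as well in reads pooled over exons. For *mel-32* this depended on the exon, as given below. *metr-1* had 11 reads in *gk165*, 63 in L2 WT, 224 in L3 WT, 326 in L4 WT, 97 in R244H and 183 in WTR. It was 6.67-fold lower than in L2 WT and 9.88-fold lower than in L3 WT, with log2 ratios of -2.74 (-3.84 to -1.83) and -3.30 (-4.36 to -2.47). *mthf-1*, with 22 reads in *gk165*, 43 in L2 WT and 165 in L3 WT, was 2.31-fold and 3.69-fold lower (log2 -1.21, -2.03 to -0.44, and -1.88, -2.61 to -1.25). *ahcy-1* had 294 reads in *gk165*, 417 in L2 WT and 1576 in L3 WT, with log2 ratios of -0.75 (-0.97 to -0.54) and -1.41 (-1.60 to -1.23). *mel-32* had 45 reads, compared with 82 and 180.5, and log2 ratios of -1.11 (-1.67 to -0.57) and -0.99 (-1.49 to -0.51).

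The *gk165* ratios were read again from the exon nearest the 3′ end alone and from the other exons, a split chosen after seeing the data. For *mel-32* the direction depended on it. Its exon nearest the 3′ end had 28.5 reads in *gk165*, 23.5 in L2 WT and 29 in L3 WT, and the log2 ratios from that exon alone were 0.03 and 0.97, whereas the other 3 exons gave -2.06 and -2.17. *sams-3*, with few reads, also turned against L2 WT, from -1.37 in the exon nearest the 3′ end to 1.85 in the others. *mthf-1* gave -0.95 and -1.07 from the exon nearest the 3′ end, short of 2-fold against L2 WT, and -1.37 and -2.31 from the others. For *ahcy-1* the exon nearest the 3′ end gave -0.32 and -0.83, and the other exons -1.20 and -1.96. *pmt-2* gave -2.17 and -2.29 from the exon nearest the 3′ end and -3.17 and -4.10 from the others, and *metr-1* gave -2.99 and -2.20, and -2.63 and -3.45. The sizes moved, but both genes stayed more than 2-fold lower on either side of the split. *sams-1* gave -3.43 and -3.81 from the exon nearest the 3′ end and -2.95 and -3.87 from the others. *pmt-1* was higher than in L2 WT both in that exon (1.90) and outside it (2.02). The part of the 3′ weighting of the *gk165* library in the ratios was not tested beyond this split.

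**Figure D3:**
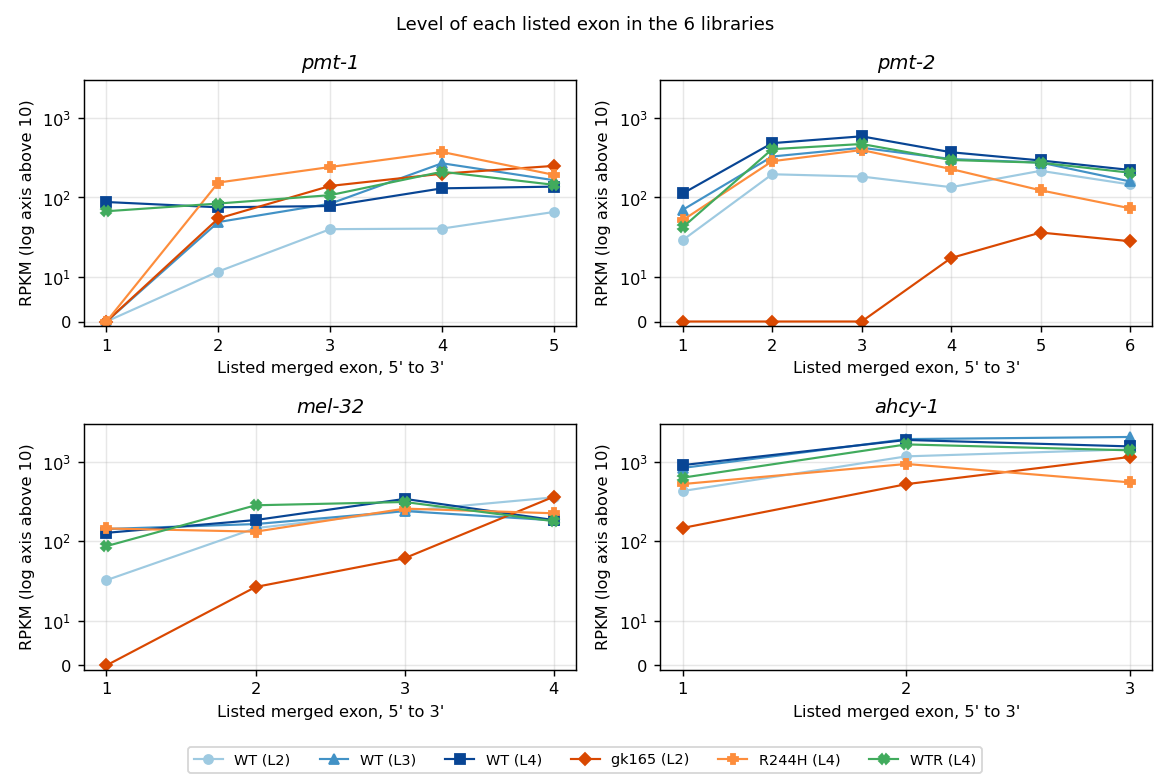
RPKM of each listed merged exon (vertical axis, log above 10 and linear from 0 to 10) of *pmt-1*, *pmt-2*, *mel-32* and *ahcy-1*, numbered 5′ to 3′ (horizontal axis), with 1 line per library and no error bars. In *gk165* the line of *mel-32* climbs from 0 in exon 1 to 363 RPKM in exon 4, beside 356 RPKM in L2 WT, and that of *pmt-2* stays at or below 36.3 RPKM in every exon.

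Of the 9 genes with more than 3 reads in at least 1 of the 3 libraries, 5 (*sams-1*, *sams-4*, *metr-1*, *mthf-1* and *pmt-2*) lay at least 2-fold below both L2 WT and L3 WT in *gk165*, and 0 lay that far above. Over all genes tested, 24% were that much lower and 16.6% that much higher. Against L2 WT *pmt-1* was the only 1 of the 9 past 2-fold upwards and 6 were past it downwards (33.2% and 26% of all genes), and against L3 WT 0 were past it upwards and 6 downwards (19.8% and 36.2%). The counting interval lay on the same side of no change against both controls for 7 of the 9, adding *ahcy-1* and *mel-32*, compared with 24.2% of all genes. All 7 lay below, where the whole table had 1147 genes below and 1146 above. Such intervals narrow as reads rise, and the 9 genes were not matched to the table for reads. For *mel-32* the exon nearest the 3′ end alone gave log2 ratios of 0.03 and 0.97, as above. Over the 9 genes the median ratio (log2) was -1.21 to L2 WT and -1.88 to L3 WT, the second being -1.83 with *sams-4* at its bound, and that of all genes tested was 0.23 and -0.43. The 2 comparisons share the *gk165* library and are not independent. Marker lists of tissues differed between these libraries too. Of 8 intestinal markers, 4 (*elt-2*, *act-5*, *pept-1* and *ifb-2*) lay at least 2-fold below both controls in *gk165*. For *elt-2* this rests on 0 reads, compared with 4 in L2 WT and 8 in L3 WT. *asp-1*, *ges-1* and *cpr-6* were more than 2-fold higher than in L2 WT, with log2 ratios of 1.52, 1.78 and 1.17. To L3 WT these were 0.45, 0.56 and 0.0005, and *vha-6* had 0.31 and -0.64. The median log2 ratio of the 8 markers was -0.52 to L2 WT and -1.33 to L3 WT. Their summed level was 7663 CPM in *gk165*, 3667 in L2 WT and 7682 in L3 WT, most of it from the protease gene *asp-1*, and without *asp-1* it was 981, 1338 and 2795 CPM. The summed level of 6 body wall muscle markers was 3379, 7490 and 14546 CPM. The summed level of 5 hypodermal markers was 355, 1255 and 816 CPM, most of it in the 2 controls from *rol-6*. Of the 5, only *rol-6* (65, 264 and 351 reads) was at least 2-fold below both controls. *col-19* counted as higher, from 5, 0 and 0 reads. The sum of 6 neuronal markers was 974, 1074 and 993 CPM (481, 863 and 772 CPM without *snb-1*, the most abundant). That of 6 yolk protein genes was 228, 17.2 and 7.18 CPM. The part of tissue composition in the ratios of the cycle genes was not tested.

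**Figure D4:**
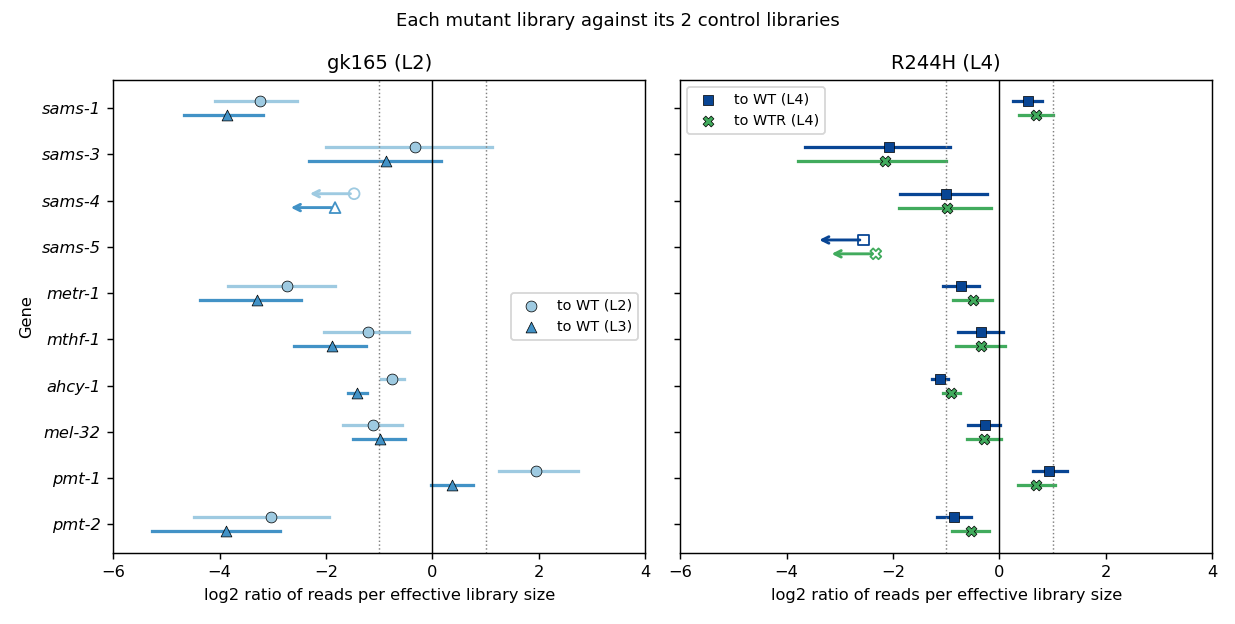
Log2 ratio of reads per effective library size (horizontal axis) of *gk165* (left) and R244H (right) to each of 2 control libraries for the 10 genes (vertical axis). Bars are exact 95% counting intervals, open symbols with arrows are bounds where the mutant library had 0 reads, dotted lines mark 2-fold, and *sams-5* has too few reads for *gk165*. *sams-1* and *pmt-1* lie to the right of no change in R244H, at 0.53 and 0.94 to L4 WT.

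In R244H larvae the genes fell on both sides of their controls. *sams-1* and *pmt-1* were above both L4 controls by their counting intervals, and the minor *sams* genes, *ahcy-1*, *metr-1* and *pmt-2* were below both. *sams-1*, at 233 RPKM in R244H, 162 in L4 WT and 145 in WTR, had log2 ratios of 0.53 (0.25 to 0.81) and 0.68 (0.37 to 1.01). In the exon nearest the 3′ end they were 0.07 and 0.24, and in its other exons 0.87 and 1.01, so the higher level was read mainly in the upstream exons. *pmt-1*, at 214 RPKM in R244H, 111 in L4 WT and 132 in WTR, had log2 ratios of 0.94 (0.62 to 1.26) and 0.69 (0.35 to 1.04), and of 0.49 and 0.41 from the exon nearest the 3′ end alone. *pmt-2*, at 174, 312 and 252 RPKM, had -0.84 (-1.17 to -0.53) and -0.54 (-0.89 to -0.19). *pmt-1* therefore held 59.9% of the reads of the pair in R244H (53.8% to 65.9%), and the intervals of L4 WT and WTR lie below this range. The exon nearest the 5′ end of *pmt-1*, of 57 bp, had 0 reads in R244H, 4 in L4 WT and 2 in WTR.

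*ahcy-1* had 461 reads in R244H, 2043 in L4 WT and 1150 in WTR. It was lower than in both, with log2 ratios of -1.12 (-1.27 to -0.97) and -0.90 (-1.06 to -0.75), the ratio to L4 WT past 2-fold and the ratio to WTR short of it. *metr-1* had 97, 326 and 183 reads in the same order and log2 ratios of -0.72 (-1.06 to -0.39) and -0.50 (-0.87 to -0.14). The intervals of *mthf-1* (-0.78 to 0.07 and -0.81 to 0.10) and *mel-32* (-0.58 to 0.01 and -0.61 to 0.03) include no change. More genes of the table were lower than higher in R244H, and expressed genes had a median log2 ratio of -0.35 to L4 WT and -0.36 to WTR. Relative to that shift, *pmt-1* stood at 1.29 and 1.05, *sams-1* at 0.88 and 1.04, *ahcy-1* at -0.77 and -0.55, *metr-1* at -0.37 and -0.14, *pmt-2* at -0.49 and -0.18, and *mthf-1* and *mel-32* at 0.00 to 0.07.

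The lowest ratios in R244H were those of *sams-5* and *sams-3*, minor SAM synthetase genes. *sams-5* had 0 reads in R244H, 36 in L4 WT and 20 in WTR. Counted at the floor of 3 reads it was 5.87-fold and 5.0-fold lower, and its intervals end at log2 -2.18 and -1.89. *sams-3* had 6 reads, compared with 54.01 and 37.5, with log2 ratios of -2.07 (-3.65 to -0.92) and -2.16 (-3.78 to -0.99). *sams-4* had 17 reads, compared with 70.5 and 45.2, with log2 ratios of -1.0 (-1.87 to -0.23) and -0.98 (-1.89 to -0.16). *sams-1* thus held 89.3% of the *sams* reads in R244H (84.3% to 93.2%), compared with 61.9% in L4 WT (57.1% to 66.6%) and 59.6% in WTR (53.3% to 65.7%), and with 89.6% and 90.4% in L2 WT and L3 WT. The summed level of the 4 genes per length differed less, at 283, 340 and 319 RPKM in R244H, L4 WT and WTR. Germline markers were low in the same library. All 8 germline markers and all 6 sperm markers were at least 2-fold lower in R244H than in both controls, the germline sum being 238 CPM in R244H, 2038 in L4 WT and 2063 in WTR, and the sperm sum 17.9, 1516 and 1759 CPM, with *ssp-16*, *gsp-3* and *gsp-4* at 0 reads in R244H. In L2 WT, L3 WT and *gk165* the germline sum was 125, 279 and 134 CPM. The intestinal sum was 14841 CPM in R244H, 8760 in L4 WT and 8074 in WTR, and most of the difference came from *asp-1*, without which it was 3871, 3261 and 3019 CPM. Of the 8 intestinal markers only *elt-2* was at least 2-fold higher than in both controls, from 11.5 reads in R244H, 7 in L4 WT and 1 in WTR. Also higher in R244H were the hypodermal sum (2580, 1476 and 1473 CPM) and the neuronal sum (755, 390 and 297 CPM). The muscle sum (15850, 18651 and 11430 CPM) lay between the controls. The yolk sum was 30713, 26530 and 29121 CPM. The part of germline, gut and the other tissues in these ratios was not tested.

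By the 2-fold rule 2 of the 10 genes, *sams-3* and *sams-5*, were lower in R244H than in both controls and 0 were higher, where 29.5% of all genes were lower and 10.5% higher, so that neither count stood above that of the table. Against L4 WT alone 4 were lower (34.7% of all genes) and 0 higher (13.9%), and against WTR alone 2 and 0 (34.9% and 18.1%). The counting interval lay on the same side of no change against both controls for 8 of the 10 genes, compared with 30.9% of all genes. Of the 8, 6 lay below and 2 above, where the whole table had 2201 genes below and 1094 above. A counting interval narrows as reads rise, and the 10 genes were not matched to the table for reads. Over the 10 genes the median ratio (log2) was -0.78 to L4 WT and -0.52 to WTR, and that of all genes tested -0.42 and -0.38. These comparisons share the R244H library.

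WTR and L4 WT, of the same stage and with functional *sdhb-1*, lay close together in the 10 genes. *sdhb-1* itself was at 70.9 RPKM in WTR and 174 RPKM in L4 WT. None of the 10 genes differed 2-fold between the 2 libraries, where 6.73% of genes were that much higher and 10.1% that much lower in WTR. The log2 ratios lay between -0.31 for *pmt-2* (-0.56 to -0.06) and 0.25 for *pmt-1* (-0.09 to 0.59). The interval lay below no change for 2 genes, *pmt-2* and *ahcy-1* (-0.32 to -0.11), and above it for 0, where 7.9% and 6.9% of all genes did. Here too the genes were not matched to the table for reads.

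Several of these genes differed between wild-type stages. From L2 to L3 *pmt-1* was 3.0-fold higher, a log2 ratio of 1.59 (0.92 to 2.35), and it was the only 1 of 9 genes past 2-fold upwards, compared with 28.5% of all genes, while 0 were past it downwards (4.3%). *pmt-2*, *sams-1*, *ahcy-1*, *mthf-1* and *metr-1* had log2 ratios of 0.57 to 0.85, and the median of expressed genes was 0.41. From L3 to L4 *sams-1* was lower at L4, with a log2 ratio of -1.48 (-1.70 to -1.26), the only 1 of 10 genes at least 2-fold lower where 17.5% of all genes were, and its level in R244H (L4), 233 RPKM, lay between those of L3 WT and L4 WT. *sams-4* was 2.25-fold higher at L4 (log2 1.17, 0.44 to 1.91) and *sams-5*, with 1 read at L3 and 36 at L4, had a log2 ratio of 4.04 (2.08 to 9.99). These were 2 of 10 genes past 2-fold upwards, where 25.8% of all genes were. The germline sum was 279 CPM at L3 and 2038 at L4.

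Among 13 other genes of the methionine and folate cycles with listed exons, 0 were at least 2-fold higher in R244H than in both controls and only *mtrr-1* was that much lower. *mtrr-1*, the methionine synthase reductase that keeps METR-1 active, had 6 reads in R244H, 89 in L4 WT and 62.5 in WTR, giving log2 ratios of -2.78 (-4.34 to -1.68) and -2.89 (-4.45 to -1.75). In *gk165*, *folt-2*, a folate transporter family gene, and *alh-3*, a formyltetrahydrofolate dehydrogenase, were the 2 genes at least 2-fold higher. *folt-2* had 52 reads in *gk165*, 4 in L2 WT and 34 in L3 WT, with log2 ratios of 3.38 (2.01 to 5.38) and 1.61 (0.97 to 2.29), and *alh-3* had 76, 19 and 74 reads, with 1.74 (1.01 to 2.56) and 1.04 (0.57 to 1.53). *gcsh-1*, of the glycine cleavage system, counted as lower with 0, 2 and 8 reads. That is too few for a ratio to L2 WT, and its interval to L3 WT, up to 0.24, includes no change. Over all genes tested, 16.6% were higher and 24% lower in *gk165*, and 10.5% higher and 29.5% lower in R244H. Germline markers were low in R244H, as given above, and their part in the ratio of *mtrr-1* was not tested.

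Homocysteine can also leave the cycle towards cysteine. Of 14 transsulfuration and cysteine genes, 12 had enough reads in *gk165* and its controls. By the 2-fold rule 3 (*cbs-1*, *ethe-1* and *cdo-1*) were higher and 1 (*cysl-2*) lower, where 16.6% and 24% of all genes tested were. *ethe-1* had 8.5 reads in *gk165*, 0 in L2 WT and 3 in L3 WT, and the interval of *cdo-1* to L2 WT (-0.03 to 2.75) includes no change. *cbs-1*, a cystathionine beta-synthase, had 25.5 reads in *gk165*, 1 in L2 WT and 11 in L3 WT, with log2 ratios of 4.14 (1.84 to 9.81) and 2.17 (1.19 to 3.42). It was also higher in R244H, with 16 reads against 11 in L4 WT and 9.5 in WTR, although the interval to WTR (-0.14 to 2.39) includes no change. *cysl-2*, a cysteine synthase family gene, had 6.5 reads in *gk165*, 14 in L2 WT and 111.5 in L3 WT and was lower than in both, and it was higher in R244H (23 reads) than in L4 WT (14) and WTR (10), with log2 ratios of 1.69 and 1.57. In R244H 3 of 13 genes (*cysl-2*, *cysl-1* and *cbs-1*) were higher and 3 (*cbs-2*, *cysl-4* and *cth-2*) lower, where 10.5% and 29.5% of all genes tested were. *cysl-1* had log2 ratios of 1.43 (0.88 to 2.02) and 1.45 (0.82 to 2.13), and *cth-2*, a cystathionine gamma-lyase gene, had -1.31 and -1.10. *cbs-2*, the other cystathionine beta-synthase gene, had 0 reads compared with 76.5 and 34. Counted at the floor of 3 reads it was 12.5-fold and 8.5-fold lower, and its intervals end at log2 -3.30 and -2.71.

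Vitamin B12 serves METR-1 and also the breakdown of propionate. Of 15 genes of that list 2 (*hach-1* and *nhr-10*) were higher and 1 (*mmaa-1*) lower in *gk165*, where 16.6% and 24% of all genes tested were. In R244H 2 (*nhr-10* and *pcca-1*) were higher and 2 (*mce-1* and *nhr-114*) lower, where 10.5% and 29.5% of all genes were. *nhr-10*, a nuclear hormone receptor of the propionate response, was higher in both mutants, its log2 ratios being 1.23 (0.13 to 2.70) and 2.28 (1.16 to 3.50) for *gk165*, from 24 reads, and 2.79 (1.93 to 3.78) and 2.49 (1.58 to 3.64) for R244H, from 48 reads. *hach-1*, a hydrolase of the B12-independent propionate shunt, had 115 reads in *gk165*, 23 in L2 WT and 98 in L3 WT, with log2 ratios of 2.06 and 1.24. *acdh-1*, the acyl-CoA dehydrogenase of that shunt, was not among the 2-fold genes in either mutant, its log2 ratios being 0.94 and 0.20 for *gk165* and -0.09 and 0.10 for R244H. *mmaa-1*, which serves the B12-dependent route, had 1 read in *gk165*, 13 in L2 WT and 43.5 in L3 WT, with log2 ratios of -3.62 (-9.36 to -1.22) and -4.10 (-9.78 to -1.90). *nhr-114*, a nuclear hormone receptor gene, had 16 reads in R244H, 111 in L4 WT and 45 in WTR, giving log2 ratios of -1.74 (-2.62 to -1.0) and -1.06 (-2.0 to -0.23).

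Phosphatidylcholine is also made and remodelled by genes other than the *pmt* pair. Of 17 with listed exons, 16 were tested in *gk165*, of which 0 were higher and 2 (*fat-7* and *snf-3*) lower, and in R244H 1 (*cka-2*) was higher and 3 (*fat-7*, *fat-5* and *cept-1*) were lower. All genes tested gave 16.6% higher and 24% lower in *gk165*, and 10.5% higher and 29.5% lower in R244H, so these counts did not stand above the table. The call of *fat-7* in *gk165* rests on 1, 5 and 12 reads and that of *cka-2* in R244H on 5, 4.5 and 1, and the intervals of both against both controls include no change, as does that of *cept-1*, with 3 reads in R244H, to L4 WT. *snf-3*, a betaine transporter gene, had 8 reads in *gk165*, 20 in L2 WT and 40 in L3 WT, with log2 ratios of -1.54 (-2.96 to -0.33) and -1.28 (-2.62 to -0.20). *fat-7*, a stearoyl-CoA desaturase gene, had 0 reads in R244H, 41 in L4 WT and 15 in WTR. Counted at the floor of 3 reads it was 6.69-fold and 3.75-fold lower, and its intervals end at log2 -2.38 and -1.43. *sbp-1*, which encodes the SREBP factor of lipid synthesis, had 12 reads in *gk165*, 9.5 in L2 WT and 17.5 in L3 WT, with log2 ratios of 0.09 and 0.45, and 25.5 reads in R244H, 25.5 in L4 WT and 18.5 in WTR, with ratios of 1.01 and 0.86. Of 11 SAM-using and polyamine genes 0 were higher and 2 (*set-2* and *coq-5*) lower in *gk165*, and 1 (*anmt-1*) was higher and 3 (*set-2*, *prmt-1* and *prmt-5*) lower in R244H. The calls in *gk165* rest on 0, 4 and 12 reads for *set-2* and on 5, 9 and 24 reads for *coq-5*. The interval of *set-2* to L2 WT, up to 0.35, includes no change, and that to L3 WT ends at -0.46. Both intervals of *coq-5* include no change. The interval of *anmt-1* to L4 WT (-0.27 to 2.66) includes no change as well. The protein arginine methyltransferase gene *prmt-1* had 95 reads in R244H, 487.5 in L4 WT and 342 in WTR, giving log2 ratios of -1.33 (-1.66 to -1.01) and -1.43 (-1.78 to -1.10). The background shares for the counts of each list are those of the mutant concerned.

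Among 957 genes with 20 or more reads in every library, those whose centred log2 profile over the 6 libraries lay nearest to *sams-1* were *myo-2*, *dpy-4* and *lin-42*, at root mean square differences of 0.37, 0.44 and 0.47. For *pmt-2* they were *sec-61*, *trap-1* and *col-73*, at 0.23, 0.33 and 0.33. All 6 were lowest in *gk165*, which the choice by likeness favours, since *sams-1* and *pmt-2* were lowest there too. *sams-1* and *pmt-2* themselves had 17 and 7 reads there, and 6 libraries give these distances little precision.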

How the data were processed

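PolyA RNA of whole worms was sequenced in 1 library for each of 6 conditions. The authors trimmed paired-end reads (Trim Galore 0.4.1, cutadapt 1.14), aligned them to WBcel235 with TopHat2 2.1.0, counted merged exons of Ensembl release 94 with featureCounts and normalized with edgeR 3.26.8. The deposited values are log2 RPKM per exon; the log2 scale carries an offset of 0.54 CPM, and the filter on exons is not given in the sources used here. A column of the authors' average log2 CPM was not used. Reads were recovered from the steps of the values: 100% fell on hundredths of a read (tolerance 0.001 reads) and 54.0% on whole reads (0.005); the setting behind the fractions is not given in the sources used here. Pooled over exons, they were compared per effective library size with a pseudocount of 1 CPM. Genes with more than 3 reads in at least 1 library compared were tested against a 2-fold threshold, and intervals used rounded reads. No replicate-based model was fitted. Scripts were tested on simulated data.

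The 10 genes, the other gene lists and the rules were chosen with earlier results of these data known. From the lists, genes at least 2-fold from both controls were named, up to 6 per list with the largest smaller ratio, and a few others (*acdh-1*, *sbp-1*) were named after their values were seen. Likeness was measured for *sams-1* and *pmt-2* only. Marker lists for intestine, germline, sperm, yolk, body wall muscle, hypodermis and neuron were summed per library. Identity between the proteins was not analysed here. Overlaps came from Ensembl release 115 of the same assembly. Alternatives were pseudocounts of 0.1 and 5 CPM, library totals without normalization factors, centring, exon summaries, a 3-fold threshold, filters and single controls. Using the exon nearest the 3′ end alone, or leaving it out, was chosen after seeing the data. The work ran in Python 3.11.15 with scipy 1.17.1 for intervals, pandas 2.3.3 and numpy 2.4.6 for tables, and matplotlib 3.10.9 for plots.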

Additional observations from a re-analysis of the deposited data

Results flagged for a closer look

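*sams-1* lay on opposite sides of its controls in the 2 mutants. In *gk165* its log2 ratio was -3.24 to L2 WT and -3.86 to L3 WT. In R244H it was 0.53 to L4 WT and 0.68 to WTR, and each of the 4 counting intervals excludes no change. From the exon nearest the 3′ end alone the R244H ratios were only 0.07 and 0.24, and from the other exons 0.87 and 1.01. The difference between the mutants was not tested, since each has 1 library and they differ in stage as well as genotype.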

How the results depend on the processing

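The main limits are 1 library per condition and the few reads of *sams-3*, *sams-4* and *sams-5*, whose ratios in *gk165* are bounds or wide intervals. No paired analysis was possible because each condition has 1 library. The count of genes at least 2-fold lower in *gk165* than both controls, 5, lay between 4 and 7 under the 15 alternatives. The count higher in *gk165* went from 0 to 1 (*pmt-1*) against L2 WT alone. In R244H the count lower went from 2 to 4 with the highest exon only, with only the exon nearest the 3′ end, and against L4 WT alone, and the count higher from 0 to 1 after centring on the median. From L2 to L3 the count higher went from 1 to 2 with mean linear RPKM, without the exon nearest the 3′ end and with no filter, and to 3 with the highest exon only and with mean log2 RPKM. From L3 to L4 the count higher went from 2 to 1 with the highest exon only and at 3-fold, and the count lower from 1 to 2 and to 0 under the same alternatives. The log2 ratio of *mel-32* in *gk165* to L2 WT turned to 0.028 with the highest exon only and with only the exon nearest the 3′ end, which were the same exon. Over all genes, the count higher in R244H went from 1120 to 1744 after centring, and the counts in *gk165* went from 1578 higher to 2594 with only the exon nearest the 3′ end and to 804 without it. Requiring the counting interval as well took the counts lower from 2281 to 1021 in *gk165* and from 3149 to 1816 in R244H.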
